A study of Bos taurus with 6 samples.

Results

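Genes that write, erase or read acetyl groups on lysine were followed in pooled bovine (Bos taurus) blastocysts that had been cultured with or without beta-hydroxybutyrate (BHB), a ketone body. The set was given as a list of 50 gene symbols, and 47 of them are among the 12826 genes of the count table. HDAC11, SIRT3 and MLLT3 are not analysed here. All 47 passed the filter on low counts, which left 12732 genes for testing. The list groups genes by function, and it was chosen with earlier results of these data known.

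The study made 6 polyadenylated RNA libraries from pools of day 7 blastocysts produced in vitro from slaughterhouse material. For 3 libraries the embryos received BHB, and the other 3, the controls, came from embryos of the same kind that received none. The sources used here do not give the dose, the time of exposure, the number of embryos in a pool or their genotype. A pool mixes trophectoderm, epiblast and primitive endoderm, so fewer cells of a type and less RNA per cell cannot be told apart.

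Acetylation removes the positive charge of lysine in histone tails and loosens their hold on DNA. Acetyltransferases place the mark from acetyl-CoA, histone deacetylases remove it with the help of zinc or, in the sirtuins, of NAD, and proteins with a bromodomain, a YEATS domain or a double PHD finger bind it. In the preimplantation embryo these enzymes act while the embryonic genome is switched on and the first lineages part. BHB is known to inhibit some deacetylases, among them HDAC1 and HDAC3, and can itself be attached to lysine, a reaction that EP300 can catalyse and that HDAC1, HDAC2 and SIRT3 can undo. The libraries measure RNA, so they hold no value for enzyme activity or for the mark itself.

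Total counts ran from 6440732 to 8176648 per library. Levels are in CPM, a unit in which counts are brought to 1 common library total, here with edgeR's TMM factors. They are not divided by transcript length and are therefore compared between libraries, never between genes. Control libraries 1 to 3 and BHB libraries 1 to 3 form pairs 1 to 3, a pairing that was recovered from the authors' deposited p-values and is not stated in the labels. No label says whether the pools were separate batches, and the p-values then cover only the spread among the 6 libraries. Blastocyst markers were present in every library: the 11 tested trophectoderm markers summed to 12766 to 20069 CPM in controls and to 9877 to 17052 CPM with BHB, and the sum was lower with BHB in 3 of 3 pairs. Most of that sum is KRT8 and KRT18, keratins of the trophectoderm, which were lower in 3 of 3 pairs as was KRT19, while the trophectoderm factors CDX2, TFAP2C and TEAD4 were higher in 3 of 3 and the other 5 markers were mixed. The 7 tested epiblast markers summed to 499 to 531 and 447 to 539.7 CPM, and the 6 tested primitive endoderm markers to 253 to 357 and 291 to 367 CPM. Among the epiblast markers, NANOG was lower with BHB in 3 of 3 pairs (mean 38.4 CPM, against 68.8 in controls). It passed DESeq2's Wald test within pairs (adjusted p = 0.00887) but not edgeR within pairs (adjusted p = 0.183). Without pairing, NANOG did not pass edgeR (adjusted p = 0.999), DESeq2's Wald test (0.368) or limma-voom (0.9996). KLF17 (30.5 against 18.5 CPM) and LIN28B were higher in 3 of 3, and the other epiblast markers were mixed. GATA4 and HNF4A, of primitive endoderm, were lower and GATA6 and COL4A1 higher in 3 of 3, and PDGFRA and APOA1 were mixed. Of the markers of other cells a pool could hold, 3 of 9 for cumulus cells (FSHR, CYP19A1 and STAR) summed to 29.6 to 37.5 CPM in controls and 28.2 to 35.3 CPM with BHB, 6 of 7 for fibroblasts to 77.7 to 118 and 67.1 to 109 CPM, PRM1 for spermatozoa to 1.06 to 4.81 and 2.63 to 4.04 CPM, and CD68 for leukocytes to 1.33 to 2.27 and 2.42 to 2.77 CPM. Their part in the results below was not tested.

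RNA of the 47 genes differed little between blastocysts cultured with and without BHB. No member passed edgeR's quasi-likelihood test with Benjamini-Hochberg adjustment over all genes (smallest adjusted p = 0.999), where 0% of all 12732 genes passed. At an unadjusted p under 0.05 there were 0 members, against 2.73% of all genes. DESeq2's Wald test called 0 members and 0.0468% of all genes, and limma-voom 0 of either. The median log2 fold change of BHB over control was 0.04 over the members and -0.005 over all tested genes. The members' median was 0.01 without control library 2 or BHB library 3, 0.08 without BHB library 2 and 0.11 with library size alone. The median size of the change, regardless of sign, was 0.12 over the members and 0.16 over all tested genes. The fold change was above 0 in 32 of 47 members (30 with DESeq2's size factors and 36 with library size alone), against 49.1% of all genes. Leaving out 1 library gave 25 (without control library 2) to 35 (without control library 1) of 47. Fits within pairs that left out 1 pair gave 23 (without pair 3, DESeq2) to 31 (without pair 1, edgeR) of 47.

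**Figure D1:**
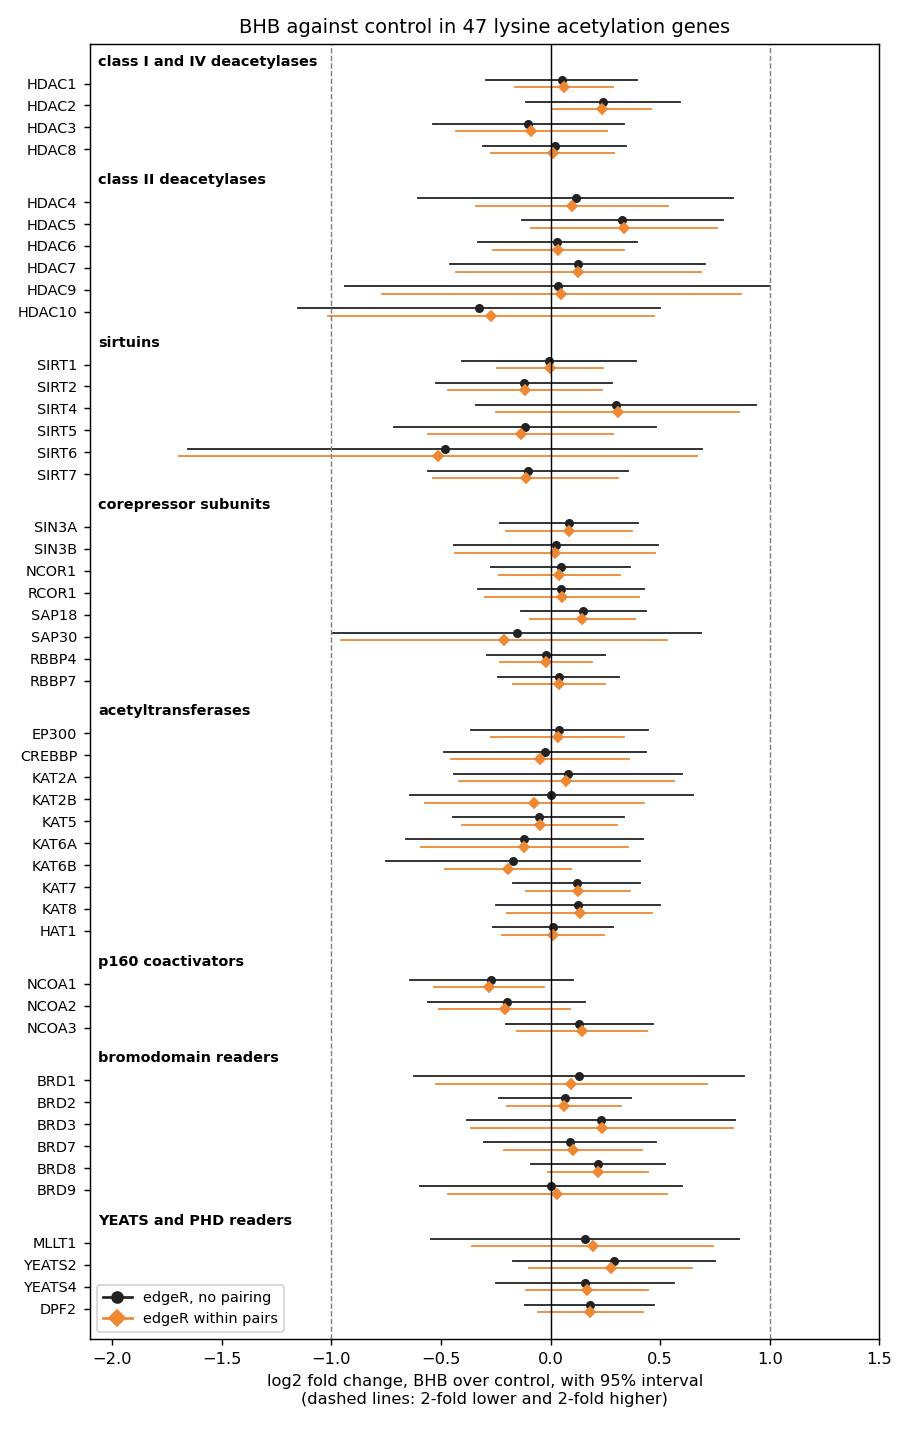
Log2 fold change of BHB over control (x axis) for each of the 47 genes, grouped by role (y axis), with its 95% interval from edgeR without pairing (black circles) and within pairs (orange diamonds); dashed lines mark 2-fold changes. All point estimates without pairing lie between -0.48 (SIRT6) and 0.33 (HDAC5), and the intervals without pairing that pass a dashed line are those of HDAC9, HDAC10 and SIRT6.

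The intervals say how large a change these 6 libraries leave possible. The 95% interval of the fold change lay wholly within 2-fold in 44 of 47 members, against 66.6% of all tested genes. It lay within 1.5-fold in 27 of 47 members, against 33.4% of all tested genes. In the edgeR fit within pairs, 45 of 47 members lay within 2-fold, against 74% of all tested genes. Within 1.5-fold there were 35 of 47, against 45.3%. The width of an interval also depends on a gene's counts. Without pairing, the narrowest interval was that of RBBP4, a histone chaperone shared by several deacetylase complexes (0.82-fold to 1.19-fold). The widest was that of SIRT6, a nuclear sirtuin counted only 6 to 16 times per library (0.32-fold to 1.62-fold).

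Among the class I deacetylases, HDAC1 and HDAC2 are the catalytic subunits of the SIN3, NuRD and CoREST corepressor complexes. HDAC2 was at 193, 226 and 241 CPM in controls 1 to 3 and 213, 277 and 289 CPM with BHB (libraries 1 to 3). Each BHB library was above its control partner, but the groups overlapped, since BHB library 1 was below control libraries 2 and 3. The log2 fold change was 0.24 (SE 0.16, 95% interval -0.11 to 0.59; edgeR adjusted p = 0.999). HDAC1 was at 778, 635 and 558 CPM in controls and 704, 726 and 613 CPM with BHB. It was highest in the control library of pair 1 and lower with BHB in that pair alone, and the log2 fold change was 0.05 (SE 0.15, 95% interval -0.29 to 0.40).

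The ratio of HDAC1 to HDAC2 counts was formed within each library, a comparison chosen after the values were seen. It was 4.03, 2.81 and 2.32 in controls 1 to 3 and 3.30, 2.62 and 2.12 with BHB. The ratio was thus lower with BHB in 3 of 3 pairs. Ratios of EP300 to CREBBP, KAT2A to KAT2B, SIN3A to SIN3B and RBBP7 to RBBP4 were also formed, and each was mixed across pairs. The ratio of HDAC1 to HDAC2 differed more between pairs than between the libraries of a pair. Its group means were 3.05 ± 0.88 in controls and 2.68 ± 0.59 with BHB (SD, n = 3 each). Since it is a ratio of counts, it does not give the proportion of molecules. HDAC1 and HDAC2 are close paralogs, and the sources used here do not say how reads that fit both were counted.

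HDAC3, the deacetylase of the NCOR complexes, was at 69.5, 48.9 and 46.3 CPM in controls and 50.8, 57.6 and 44.9 CPM with BHB. Control library 1 stood above the other 5, and the groups overlapped (log2 fold change -0.10, SE 0.19). HDAC8, which acts on cohesin, was at 159 to 176 CPM in controls and 141 to 186 CPM with BHB (0.02, SE 0.14).

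The class II deacetylases had 5 of 6 fold changes above 0 (3 without control library 2, BHB library 1 or BHB library 3), and none passed the test. HDAC5 is a class IIa enzyme, one of those that shuttle between cytoplasm and nucleus and bind MEF2 factors. It was at 11.5, 14.6 and 14.3 CPM in controls and 15.9, 17.3 and 17.5 CPM with BHB. It is 1 of 2 members whose groups did not overlap, which 7.84% of all tested genes also showed (4.06% with BHB above control). Its log2 fold change of 0.33 was the largest positive one of the 47 (SE 0.20, 95% interval -0.13 to 0.78; edgeR adjusted p = 0.999). HDAC5 was counted 86 to 125 times per library.

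HDAC4, another class IIa enzyme, varied more between pairs than with treatment, but edgeR's test between pairs did not call it (adjusted p = 0.109). It was at 20.6, 11.8 and 13.2 CPM in controls and 22.2, 10.5 and 16.5 CPM with BHB, so both libraries of pair 1 were above the other 4. HDAC7 was at 6.46 to 8.09 CPM in controls and 7.29 to 8.31 CPM with BHB, and HDAC9 at 1.86 to 4.01 and 2.08 to 3.79 CPM. HDAC6, which deacetylates tubulin in the cytoplasm, had a log2 fold change of 0.03 (SE 0.16). HDAC10, a polyamine deacetylase, was at 7.75 CPM in control library 1 and at 3.45 to 4.93 CPM in the other 5 libraries. Its log2 fold change of -0.33 (SE 0.37) was 0.03 without control library 1.

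Of the 6 sirtuins, 5 had a fold change below 0 (4 with library size alone, and 3 without control library 2 or BHB library 1) and none passed the test. SIRT1, a nuclear deacetylase of histones and transcription factors, was at 96.7, 123 and 141 CPM in controls and 101, 123 and 136 CPM with BHB. The libraries of a pair were nearly equal, and the log2 fold change was -0.008 (SE 0.18, 95% interval -0.41 to 0.39), which turned to 0.05 when libraries were scaled by size alone. SIRT6 was at 2.14, 1.99 and 1.17 CPM in controls and 0.81, 1.94 and 1.02 CPM with BHB. The groups overlapped, and the log2 fold change was -0.48 (SE 0.52). SIRT4, a mitochondrial sirtuin and the member of this family with a positive fold change, was at 5.88, 6.89 and 8.92 CPM in controls and 8.49, 7.62 and 10.7 CPM with BHB (0.30, SE 0.28). SIRT5, which removes succinyl and malonyl groups in mitochondria, ran from 19.7 CPM in BHB library 1 to 40.6 CPM in control library 2 (-0.12, SE 0.26). The log2 fold changes of SIRT2 and SIRT7 were -0.12 (SE 0.18) and -0.10 (SE 0.20).

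**Figure D2:**
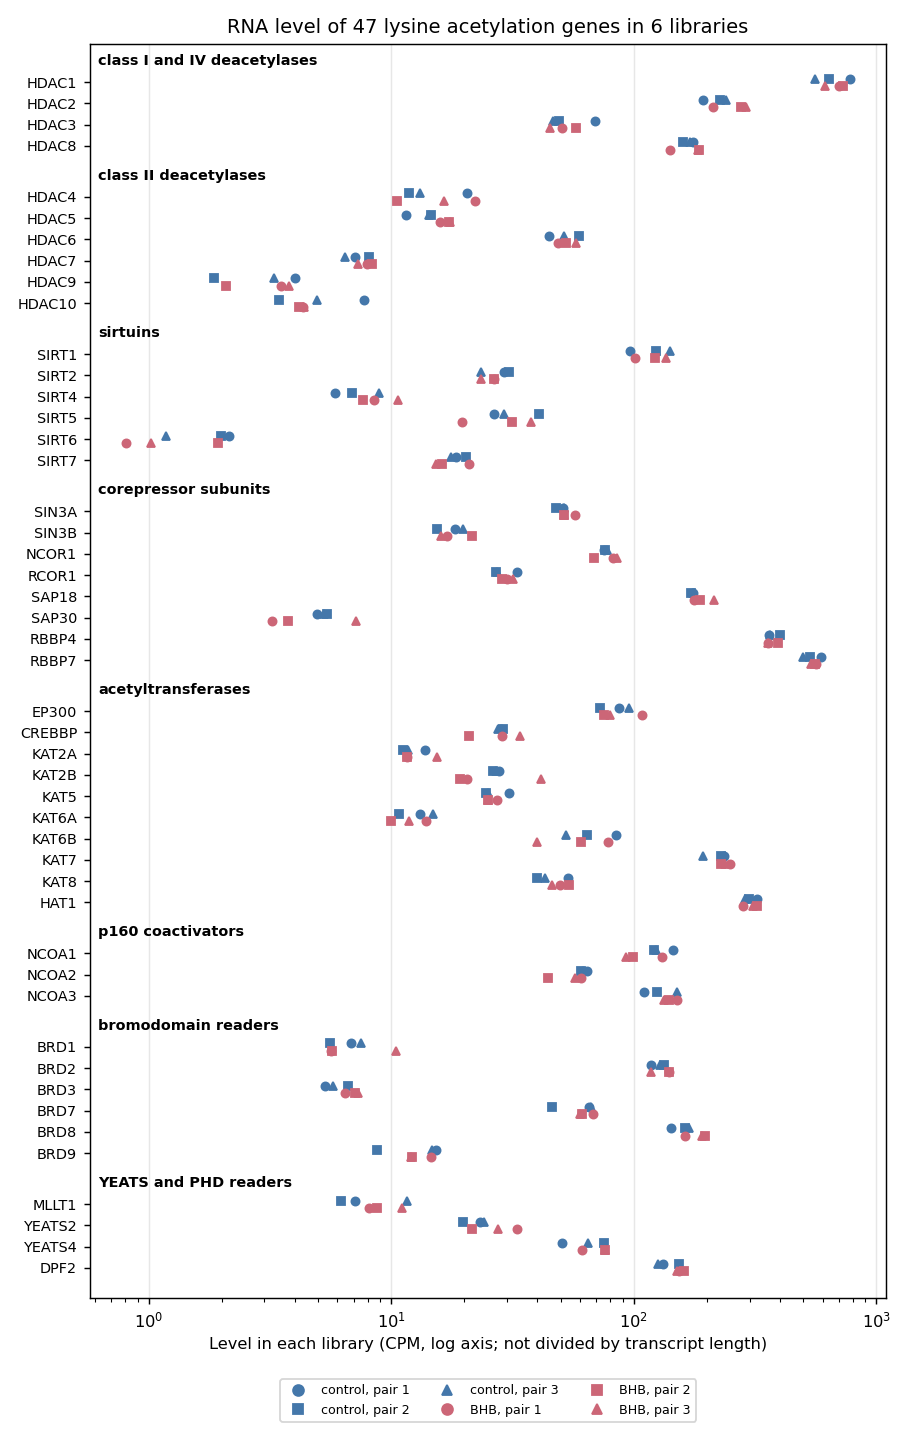
Level of each of the 47 genes in the 6 libraries (x axis: CPM on a log axis, not divided by transcript length), grouped by role (y axis), with controls in blue, BHB in red and a marker shape for each pair. Blue and red points overlap in 45 of the 47 genes; the exceptions are HDAC5 and SAP18.

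Subunits that hold class I deacetylases in their complexes had the smallest spread of the 8 role groups. The SD of log2 CPM over the 6 libraries had a median of 0.11 in the 8 corepressor genes, against 0.19 over all members and 0.29 over all tested genes; the spread of a gene also depends on its counts. SAP18, a subunit of the SIN3 complex, was at 175, 172 and 175 CPM in controls and 176, 187 and 215 CPM with BHB. It is the other member without overlap between the groups, by a margin that is small in pair 1 and widest in pair 3. SAP18 counts were 1310 of 7348949 in BHB library 1 and 1490 of 8176648 in control library 3. That share is larger in the control library, so without the TMM factors the groups overlapped. The log2 fold change of SAP18 was 0.15 (SE 0.13, 95% interval -0.14 to 0.43; edgeR adjusted p = 0.999). RBBP4 was at 359.9, 400.1 and 363 CPM in controls and 357, 392 and 357 CPM with BHB, and each pair held nearly the same value in both libraries (log2 fold change -0.02, above 0 with library size alone). The related chaperone RBBP7 was at 497 to 593 CPM in controls and 537 to 566 CPM with BHB (log2 fold change 0.04, SE 0.12).

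The scaffolds SIN3A and SIN3B, the HDAC3 partner NCOR1 and the CoREST subunit RCOR1 had log2 fold changes of 0.09, 0.03, 0.05 and 0.05, each with groups that overlapped. NCOR1 was at 75.5 to 77.3 CPM in the 3 controls and at 68.3 to 85.5 CPM with BHB. SAP30, another SIN3 subunit, was at 4.94 to 5.44 CPM in controls and 3.23, 3.74 and 7.15 CPM with BHB. The BHB libraries of SAP30 thus lay on both sides of the controls (-0.15, SE 0.37).

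Among the acetyltransferases, 6 of 10 fold changes were above 0 (5 with DESeq2's size factors, 8 with library size alone, and 4 without control library 2 or BHB library 3) and none passed the test. EP300 and CREBBP are paralogous coactivators that acetylate histone H3 at enhancers. EP300 was at 87.0, 72.4 and 95.9 CPM in controls and 108, 75.3 and 79.5 CPM with BHB. It was higher with BHB in pairs 1 and 2 and lower in pair 3, with a log2 fold change of 0.04 (SE 0.18, 95% interval -0.36 to 0.45). CREBBP was at 28.5, 28.9 and 27.6 CPM in controls and 28.6, 20.9 and 34.0 CPM with BHB (-0.03, SE 0.20), and its sign turned when libraries were scaled by size alone (0.05). In CREBBP the controls lay close together and the BHB libraries lay on both sides of them.

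The paralogs KAT2A and KAT2B are catalytic subunits of the SAGA and ATAC coactivator complexes. KAT2B, like CREBBP, had controls close together, at 26.3 to 27.9 CPM, and BHB libraries on both sides of them, at 20.6, 19.3 and 41.6 CPM (log2 fold change 0.003, SE 0.29). Other members, among them HDAC10, RBBP7, NCOA3, BRD9 and DPF2, had the larger SD of CPM in controls. The difference in spread was not tested. KAT2A was at 13.8, 11.1 and 11.7 CPM in controls and 11.6, 11.6 and 15.5 CPM with BHB (0.08, SE 0.23). KAT7, which acetylates histone H3 near replication origins, was at 235, 229.8 and 193 CPM in controls and 248, 229.3 and 238 CPM with BHB (0.12, SE 0.13). KAT8, which acetylates histone H4, was at 53.6, 40.0 and 43.1 CPM in controls and 49.4, 53.9 and 45.8 CPM with BHB (0.13, SE 0.17). HAT1, which acetylates newly made histone H4, was at 288 to 321 CPM in controls and 283 to 322 CPM with BHB (0.01, SE 0.12). KAT5, the catalytic subunit of the NuA4/TIP60 complex, and KAT6A had log2 fold changes of -0.05 (SE 0.17; above 0 with library size alone) and -0.12 (SE 0.24).

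NCOA1, NCOA2 and NCOA3 form the p160 family, which bridges nuclear receptors to EP300 and CREBBP. NCOA1 was at 145, 121 and 123 CPM in controls and 131, 99.3 and 92.8 CPM with BHB. Each BHB library was below its partner, by 0.15, 0.28 and 0.41 on the log2 scale, but BHB library 1 was above control libraries 2 and 3. The log2 fold change was -0.27 (SE 0.17, 95% interval -0.64 to 0.10; edgeR adjusted p = 0.999), and its unadjusted p of 0.137 was the smallest of the 47 by edgeR. NCOA2 was at 64.1, 60.3 and 61.9 CPM in controls and 60.6, 44.5 and 57.2 CPM with BHB (-0.20, SE 0.16), also lower in 3 of 3 pairs. NCOA3 was at 110.2, 125 and 151 CPM in controls and 150.3, 139.7 and 133 CPM with BHB (0.13, SE 0.15). The fold change of NCOA3 thus had the other sign than those of its paralogs; the difference between them was not tested.

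The readers had fold changes above 0 in 10 of 10 tested genes, none of which passed the test. With DESeq2's size factors this was 9 of 10, with BRD9 below 0, and without control library 2 it was 7 of 10. Among all tested genes 49.1% had a fold change above 0, and among 22 other readers chosen by function it was 12. BRD8, a bromodomain subunit of the NuA4/TIP60 complex, was at 142, 163 and 168 CPM in controls and 163, 197 and 190.1 CPM with BHB. It was higher with BHB in 3 of 3 pairs, and the groups overlapped at the lowest BHB library (log2 fold change 0.22, SE 0.14, 95% interval -0.09 to 0.52; edgeR adjusted p = 0.999). BRD2 and BRD3 are BET proteins, which tie acetylated chromatin to transcription. BRD2 was at 118, 133 and 128 CPM in controls and 140.0, 139.5 and 117 CPM with BHB (0.07, SE 0.13). BRD3 was at 5.34, 6.63 and 5.75 CPM in controls and 6.47, 7.06 and 7.29 CPM with BHB (0.23, SE 0.27), higher in 3 of 3 pairs from 40 to 51 counts per library.

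BRD7 and BRD9 belong to SWI/SNF chromatin remodellers, and BRD1 to complexes of the KAT6 and KAT7 enzymes. Their log2 fold changes were 0.09, 0.002 and 0.13, with groups that overlapped. YEATS2, the reader subunit of the ATAC complex, was at 23.2, 19.8 and 24.1 CPM in controls and 32.9, 21.6 and 27.4 CPM with BHB (0.29, SE 0.20). YEATS4 was at 50.8, 75.4 and 64.8 CPM in controls and 61.0, 75.8 and 76.2 CPM with BHB (0.16, SE 0.18). DPF2, a double PHD finger subunit of SWI/SNF, was at 132, 153 and 126 CPM in controls and 154, 161 and 150.0 CPM with BHB (0.18, SE 0.13). These 3 genes were higher with BHB in 3 of 3 pairs, although in YEATS4 the libraries of pair 2 were nearly equal. MLLT1, a YEATS domain protein of the super elongation complex, was at 6.23 to 11.6 CPM in controls and 8.08 to 11.1 CPM with BHB (0.16, SE 0.31).

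Comparing the libraries within pairs did not bring any member past the threshold. With the pair as a block, edgeR called 0 members at a smallest adjusted p of 0.571 and 0% of all genes, and DESeq2 called 0 members and 0.273% of all genes. Below an unadjusted p of 0.05, the blocked edgeR fit had 1 member higher with BHB, HDAC2, against 3.99% of all genes, and 1 lower, NCOA1, against 4.21%. By DESeq2 within pairs neither was under 0.05 (unadjusted p = 0.0712 for HDAC2 and 0.0506 for NCOA1). The blocked log2 fold change was 0.23 (SE 0.10, edgeR adjusted p = 0.590) for HDAC2 and -0.28 (SE 0.11, edgeR adjusted p = 0.571) for NCOA1. BRD8 followed at 0.22 (SE 0.10, edgeR adjusted p = 0.630). The level was higher with BHB in 3 of 3 pairs in 10 of 47 members (21.3%), against 14.5% of all tested genes, and lower in 6 (12.8%), against 15.7%. The 10 were HDAC2, HDAC5, HDAC7, SIRT4, SAP18, BRD3, BRD8, YEATS2, YEATS4 and DPF2. The 6 were SIRT2, SIRT6, RBBP4, KAT6B, NCOA1 and NCOA2.

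**Figure D3:**
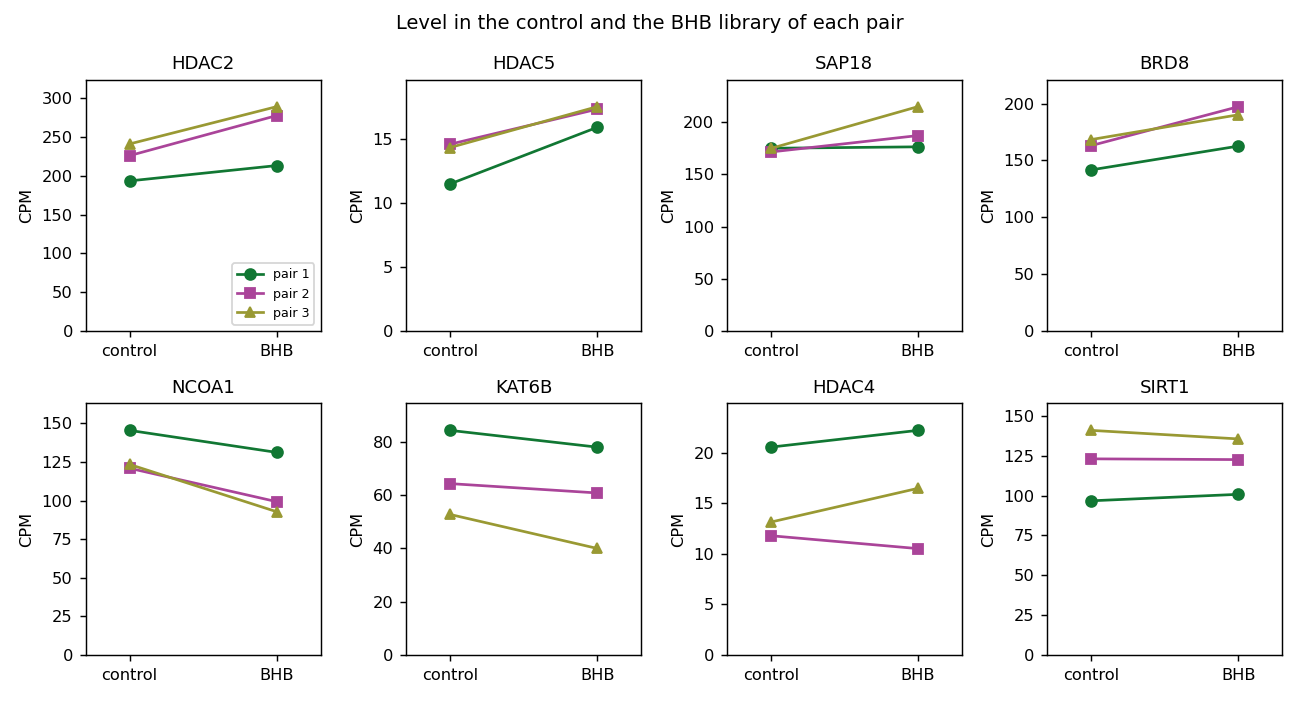
Level in CPM (y axis, from 0) of 8 genes in the control and the BHB library of each pair, joined by a line. HDAC2, HDAC5, SAP18 and BRD8 are higher and NCOA1 is lower with BHB in each pair, without passing the test; in KAT6B, HDAC4 and SIRT1 the lines of the 3 pairs cover separate ranges.

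Pair took a larger share of the variance than treatment in 42 of 47 members (89.4%), against 79.9% of all tested genes. Pair took a median of 52.9% of the variance of log2 CPM in the 47 genes and treatment 8.61%, and over all tested genes these medians were 53.5% and 10.8%. Pair has 2 degrees of freedom and treatment 1, so pair takes the larger share even without an effect. With treatment in the model, edgeR's test between pairs called 1 member, KAT6B, against 4.12% of all genes. At an unadjusted p under 0.05 that test had 7 members, against 20.6% of all genes: HDAC2, HDAC4, SIRT1, SIRT5, KAT6B, NCOA1 and YEATS4.

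KAT6B encodes an acetyltransferase of histone H3 that works in a complex with BRPF proteins. It was at 84.3, 64.3 and 52.7 CPM in controls 1 to 3 and 78.0, 60.8 and 40.0 CPM with BHB. Both libraries of pair 1 were above both of pair 2, and these were above both of pair 3, with pair means of 81.1, 62.5 and 46.3 CPM. The test between pairs gave an adjusted p of 0.0440 in edgeR. The call was lost without control library 1 (edgeR adjusted p = 0.110), BHB library 1 (0.124) or BHB library 3 (0.0900), and without control library 3 KAT2B was called as well. With treatment, the log2 fold change of KAT6B was -0.17 (SE 0.26) and turned to 0.03 without control library 1 and to 0.05 without BHB library 3. In the authors' deposited table KAT6B is the 1 member with an adjusted p under 0.05 (0.0249), as 5.04% of the genes of that table are. A refit of the counts returned those deposited p-values from a test of pair and treatment together, so the value for KAT6B is not a test of BHB alone. KRT8 and KRT18, which make up most of the trophectoderm sum, had pair means in the same order, at 11044, 9773 and 6537 CPM for KRT8 and 3770.2, 3309 and 2379.99 CPM for KRT18. TFAP2A, PTGS2 and PAG2 also had pair means in this order. TFAP2C (232, 219.97 and 287 CPM), KRT19 (177, 413 and 219.99 CPM), CDX2, GATA2, GATA3 and TEAD4 had other orders. Of these markers, edgeR's test between pairs called KRT8 (adjusted p = 0.00706), KRT18 (0.0169), KRT19 (0.0340) and PAG2 (0.00164). The part of the markers in the difference of KAT6B was not tested.

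No other member passed the test between pairs. HDAC4 had pair means of 21.4, 11.2 and 14.8 CPM (edgeR adjusted p between pairs = 0.109). SIRT1 ran the other way from KAT6B, with pair means of 98.7, 123 and 138 CPM (edgeR adjusted p between pairs = 0.131). HDAC2 had pair means of 203, 252 and 265 CPM (edgeR adjusted p between pairs = 0.187), and HDAC1 had means of 741, 681 and 585 CPM (edgeR adjusted p between pairs = 0.253). In HDAC1 and HDAC2 the single libraries of different pairs overlapped.

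**Figure D4:**
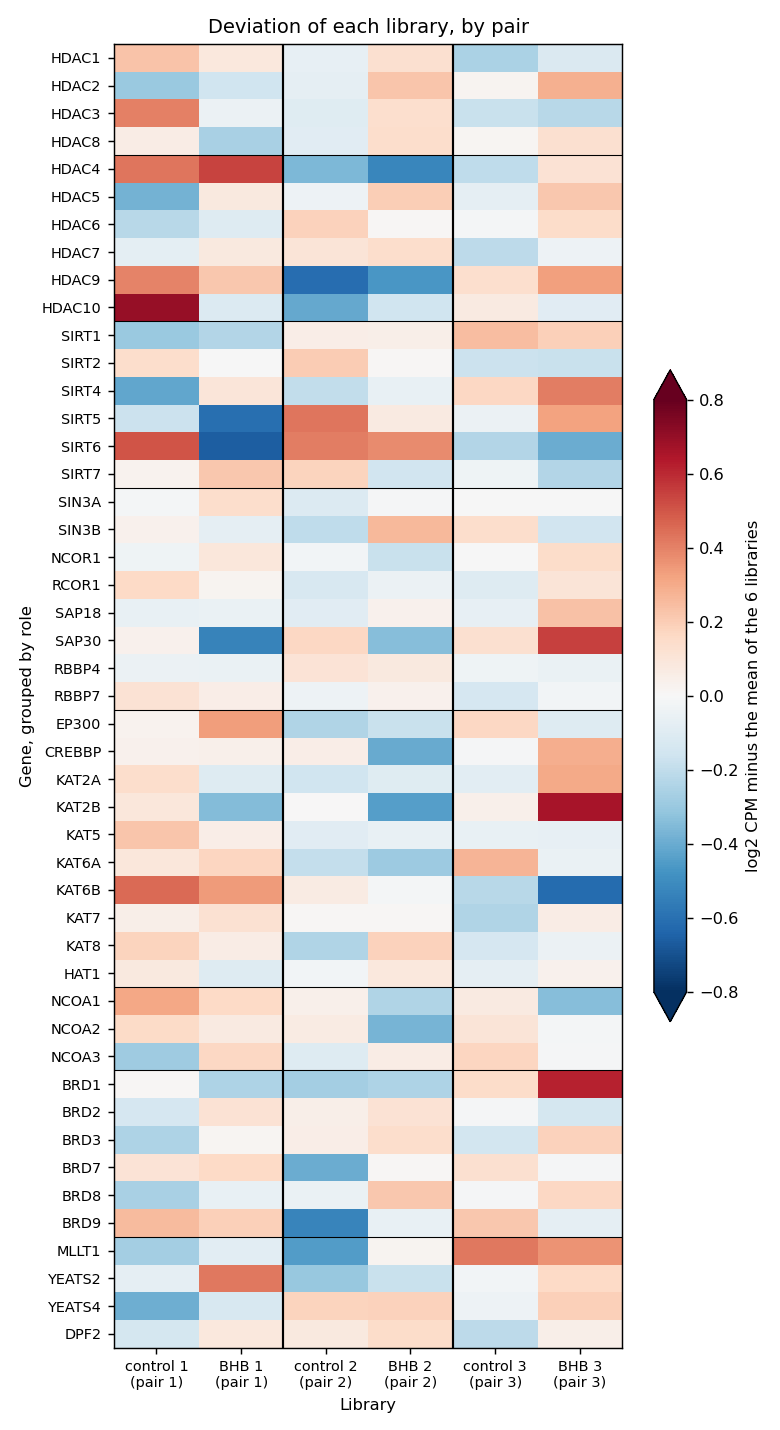
Deviation of log2 CPM from the mean of the 6 libraries (colour) for each of the 47 genes (rows, grouped by role) in each library (columns, ordered by pair). KAT6B and HDAC4 have a like colour in both libraries of pair 1, and HDAC10 in control library 1 and KAT2B in BHB library 3 stand out as single libraries.

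The wider pathway, 94 further genes chosen by function, showed no call either. Of these, 87 were tested, and 0 were called higher and 0 lower by edgeR, with 44 fold changes above 0 and a median log2 fold change of 0.01. At an unadjusted p under 0.05 there were 2, against 2.73% of all genes, and groups did not overlap in 8, against 7.84%. Of 23 other corepressor subunits, those with the smallest p were PHF21A, a CoREST complex subunit, at 5.88, 5.97 and 9.75 CPM in controls and 4.58, 3.60 and 4.09 CPM with BHB (log2 fold change -0.82, SE 0.33), and the SIN3 subunit SUDS3 (0.22, SE 0.13). Of 31 other acetyltransferase subunits, they were BRPF3, a scaffold for KAT7, at 30.1, 31.8 and 35.9 CPM in controls and 40.0, 40.6 and 39.7 CPM with BHB (0.30, SE 0.16), and JADE3 (-0.24, SE 0.15). Of 22 other readers, they were PBRM1, the multiple bromodomain subunit of the PBAF remodeller, at 43.9, 56.7 and 56.8 CPM in controls and 71.8, 64.3 and 67.7 CPM with BHB (0.37, SE 0.16), and ZMYND11 (0.28, SE 0.16). These 6 genes were picked by p in the same comparison, which favours genes whose groups do not overlap. All but ZMYND11 had such groups, at an edgeR adjusted p of 0.999 each. Of 11 genes that supply or use acyl-CoA or NAD, PARP1 (0.15, SE 0.13) and the crotonyl-CoA hydratase gene CDYL (-0.33, SE 0.30) had the smallest p.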

How the data were processed

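RNA-seq libraries of 6 pools of bovine day 7 blastocysts, 3 with BHB and 3 controls, were compared. The authors deposited whole-number counts per gene and, in a second table, a mean of scaled counts (a signal on a linear scale), a log2 fold change with its error, a test score, and p-values before and after adjustment. STAR, featureCounts and DESeq2 were used, per the submitters' processing notes; the sources used here do not give versions, genome build, annotation, strand setting or the treatment of multiply mapped reads, so reads of paralogs and of overlapping or antisense genes may be mixed.

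Replicate numbers follow the order of deposit. BHB was compared with control by edgeR 4.0.16 (TMM, filterByExpr, quasi-likelihood F test, Benjamini-Hochberg over the 12732 genes kept, threshold 0.05; R 4.3.3). The SE is the size of the log2 fold change over the root of F, and 95% intervals use the test's degrees of freedom. DESeq2 1.42.0, limma 3.58.1 (voom), other scalings and filters, and fits without 1 library were alternatives. Log2 CPM used a prior count of 2. The code was tested on simulated data.

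DESeq2's likelihood ratio test of pair and treatment together returned the deposited p (to within 1e-06) for 100% of genes under 1 pairing and for at most 0.398% under the other 5. Deviations from the group means correlated at 0.46, 0.32 and 0.33 within these pairs.

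The members and all gene lists were chosen with earlier results of these data known. Values per library are given for the 16 members with the smallest p, those whose groups do not overlap, those called in an alternative or between pairs, and HDAC1, HDAC2, HDAC3, SIRT1, EP300, CREBBP, BRD2 and KAT2A; others were added after their values were seen. Of each partner list, the 2 genes with the smallest p are named. All 47 members matched a symbol of the ARS-UCD2.0 RefSeq gene table, used for names alone.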

Additional observations from a re-analysis of the deposited data

How the results depend on the processing

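No member and no partner gene was called between BHB and control under any of the alternatives run. Over all genes, where edgeR called 0, DESeq2's Wald test called 6, fits without 1 library called 0 to 1, and the replicate block with DESeq2 called 35 (0 with edgeR). The block without pair 1, 2 or 3 called 4, 16 or 4 genes with edgeR and 13, 12 or 15 with DESeq2. Between pairs, 1 member was called with the other scaling, filters and test that were run, and 0 to 2 without 1 library, a check chosen after the data were seen. The direction under each setting was counted in 24 members, among them the 16 with the smallest p in the same data. A small p favours a stable direction, so the count does not stand for all 47 members. Only members among those 16 kept their direction under every setting, 13 in number. Of these, leaving out 1 library moved YEATS4 to between 0.02 and 0.30, NCOA2 -0.29 and -0.07, SAP18 0.06 and 0.21, YEATS2 0.13 and 0.43, NCOA1 -0.44 and -0.17, HDAC2 0.16 and 0.36, KAT7 0.04 and 0.18, SIRT4 0.15 and 0.48, and SIRT6 -0.93 and -0.24. Library size alone turned SIRT1 to 0.054 and CREBBP to 0.048, and put RBBP4 and KAT5 above 0. Leaving out a library or a pair gave ranges that cross 0 for HDAC1 (-0.054 to 0.19), HDAC3 (-0.25 to 0.11), HDAC10 (-0.56 to 0.042), SIRT1 (-0.14 to 0.12), EP300 (-0.14 to 0.19), CREBBP (-0.23 to 0.16), KAT2A (-0.096 to 0.23), KAT6B (-0.41 to 0.049), KAT8 (-0.018 to 0.26), NCOA3 (-0.014 to 0.31) and BRD2 (-0.035 to 0.17); the cause was not tested. Fits without 1 library keep its partner and so mix pair with treatment. Depth limits SIRT6, HDAC9, HDAC10, SIRT4, SAP30, BRD1, BRD3 and MLLT1 most, each under 50 counts in at least 1 library.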
